A study of Mus musculus with 8 samples.

Results

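The genes that build the signal for osteoclast formation were followed through the cell types of the neonatal petrous temporal bone (PTB), 6 genes of the 32285 features counted: the ligand Tnfsf11, its decoy receptor Tnfrsf11b, its receptor Tnfrsf11a, the ligands Csf1 and Il34, and their shared receptor Csf1r. They were chosen by name for their place in the pathway, and all 6 were found once each in the count files. For each of the 15 deposited PTB cell types, the unique molecular identifiers (UMIs, each marking 1 captured RNA molecule) were summed per library and given as CPM, the counts per 1000000 UMIs of the summed nuclei.

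Osteoclasts are the bone-resorbing cells that form by fusion of myeloid precursors. RANKL, encoded by Tnfsf11, is made by cells of the skeletal lineage and binds RANK, encoded by Tnfrsf11a, on the precursors, while osteoprotegerin, encoded by Tnfrsf11b, is a secreted decoy that captures RANKL before it reaches RANK. CSF1 and IL-34 both act through CSF1R, the receptor on which the growth and survival of macrophages and osteoclast precursors depend.

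Single-nucleus RNA sequencing was done on the PTB and on the paraflocculus/flocculus (PF/F), a pair of cerebellar lobules, from P5.5 mice that were wild type (WT) or heterozygous for loss of Tbx1 (Tbx1+/-). Each of the 8 libraries pooled 5 mice, and the 4 PTB libraries comprised 2 WT and 2 Tbx1+/- pools. The paper describes 2 batches of each genotype, and libraries with the same replicate number were taken here to share a batch. Mice of both sexes on the C57BL/6J background were used, and the tissue was flash-frozen before nuclei were isolated. With pools as replicates, the p-values below measure the spread between pools and not between animals.

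Between 11906 and 21868 barcodes per PTB library were deposited, with 66835028 to 88677309 UMIs. The annotation covered 31076 of these nuclei, with medians of 3853 to 4758 UMIs per library, in 4 connective tissue types (CT1 to CT4), 6 chondrocyte progenitor types (CP1 to CP6), matured chondrocytes, a type labelled hypertrophic chondrocyte/osteoblasts, osteoblasts, matured osteoblasts/osteocytes and osteoclasts. Pairs of libraries shared 11 to 26 annotated barcodes. Tbx1 stood at 38.9 and 39.4 CPM in the WT libraries and at 26.3 and 35.7 CPM in the Tbx1+/- libraries, so it was lower in both, by less in replicate 2. The deposited counts do not include the authors' correction for free RNA. To compare genes with each other, levels were also divided by the length of the gene, since introns were counted (CPM per kb). Whether capture from 3′ ends grew with gene length was not tested, so an order by CPM per kb is uncertain.

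The 6 genes lie on 6 chromosomes of mm10 (GRCm38). Tnfsf11 (ENSMUSG00000022015) spans chr14:78277445-78308043 on the minus strand, Tnfrsf11b (ENSMUSG00000063727) chr15:54250619-54278484 on the minus strand and Tnfrsf11a (ENSMUSG00000026321) chr1:105780718-105847981 on the plus strand. Csf1 (ENSMUSG00000014599) spans chr3:107741048-107760469 on the minus strand and Il34 (ENSMUSG00000031750) chr8:110741829-110805924 on the minus strand. All are protein-coding, and their spans run from 19.4 kb for Csf1 to 67.3 kb for Tnfrsf11a. Over all annotated PTB nuclei the members had 929 UMIs (Il34) to 12079 UMIs (Csf1).

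To show the sequence in front of a ligand expressed by few types beside those of a broadly expressed ligand and of a receptor, the 250 bases before the RefSeq start of 3 members are given 5′ to 3′ on the gene's strand (RefSeq, GRCm38.p6). They cover chr14:78308044-78308293 (minus) for Tnfsf11, chr3:107760470-107760719 (minus) for Csf1 and chr1:105780473-105780722 (plus) for Tnfrsf11a. Capitals mark every match, on either strand, to 7 searched motifs: TATAAA as the core promoter box, TGTGGT for RUNX factors, TGACGTCA for the cyclic AMP element, TGANTCA for AP-1, GAGGAAG for PU.1, CANGTG as an E box and GGGCGG as the GC box.
Tnfsf11: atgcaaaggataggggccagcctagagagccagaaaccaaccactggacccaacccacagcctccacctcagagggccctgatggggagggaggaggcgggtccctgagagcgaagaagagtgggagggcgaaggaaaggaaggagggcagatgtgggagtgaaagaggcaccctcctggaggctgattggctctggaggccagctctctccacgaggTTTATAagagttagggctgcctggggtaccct
Csf1: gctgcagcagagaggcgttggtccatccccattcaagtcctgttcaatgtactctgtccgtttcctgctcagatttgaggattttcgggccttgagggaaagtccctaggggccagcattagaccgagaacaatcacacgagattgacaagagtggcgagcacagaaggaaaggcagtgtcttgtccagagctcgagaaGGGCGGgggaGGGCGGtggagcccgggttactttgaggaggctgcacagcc
Tnfrsf11a: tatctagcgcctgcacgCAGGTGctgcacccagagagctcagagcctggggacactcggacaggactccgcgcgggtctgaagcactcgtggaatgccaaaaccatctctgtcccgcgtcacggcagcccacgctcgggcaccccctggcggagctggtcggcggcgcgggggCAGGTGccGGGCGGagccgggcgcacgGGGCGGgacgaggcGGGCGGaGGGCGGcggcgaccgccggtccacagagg
In the Tnfsf11 window the only match was TATAAA on the opposite strand, its first base 32 bases before the start, and 12.4% of all 32851 promoter windows of this length held that motif. The Csf1 window held 2 GC boxes, 51 and 41 bases before the start, and the Tnfrsf11a window held 4 GC boxes and 2 E boxes. GC boxes occurred in 32.7% and this E box in 39.5% of the windows. The GC content was 60.4% for Tnfsf11, 56.4% for Csf1 and 73.6% for Tnfrsf11a, against a mean of 53.2% over all windows. No match to the RUNX, CRE, AP-1 or PU.1 letters lay in these 3 windows, which are present in 14.0%, 1.55%, 6.75% and 10.6% of all windows.

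The osteoclast label was checked first. All 8 osteoclast markers listed, among them the protease gene Ctsk, the acid phosphatase gene Acp5 and the fusion gene Dcstamp, had their highest level in the osteoclast class, which held 1559 nuclei. Their summed level was 10188 to 11994 CPM in osteoclasts and at most 1611 CPM in any library of another class. The 8 macrophage or monocyte markers summed to 115 to 167 CPM in osteoclasts, and none was at 0. Their sum was higher, 341 to 412 CPM, in the hypertrophic chondrocyte/osteoblast class, where F13a1 alone had 301 CPM and the complement genes C1qa, C1qb and C1qc had 7.54 to 10.8 CPM. The 5 skeletal muscle markers summed to 665 to 901 CPM in osteoclasts, where Ttn, encoding titin, alone had 758 CPM, against class means of 85.0 to 206 CPM elsewhere; their part in the osteoclast values was not tested. Mmp9, a gelatinase gene on the osteoclast list, was at 1411 CPM in CT4 and at 1116 CPM in osteoclasts, so among the 15 types its highest level was not in osteoclasts. In the hypertrophic chondrocyte/osteoblast type, Runx2, a master factor of bone formation, was at 6974 CPM and Spp1, encoding osteopontin, at 4827 CPM. These 2 of the 10 osteoblast markers had their highest class level there, while Sp7, another bone factor, was at 198 CPM against 349.5 CPM in osteoblasts and Bglap, encoding osteocalcin, at 273 CPM against 925 CPM. Col10a1, the collagen of hypertrophic cartilage, was at 42.4 ± 29.8 CPM there (24.7 to 86.8 CPM per library) against 192 ± 83.8 CPM (SD, n = 4) in matured chondrocytes, and Sox9, the cartilage factor, was at 17.0 CPM against 144 CPM. The type is called here by the name it was deposited with.

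The types were found by clustering these same nuclei, so differences between types are described without a test. RANKL transcripts had their highest level in the hypertrophic chondrocyte/osteoblast type. Tnfsf11 was there at 55.9 and 66.7 CPM in the WT libraries and at 60.9 and 63.9 CPM in the Tbx1+/- libraries, a mean of 61.8 ± 4.61 CPM (SD, n = 4). CP1 came next with 50.5 and 47.5 CPM in WT and 40.1 and 43.0 CPM in Tbx1+/-, a mean of 45.3 ± 4.61 CPM (SD, n = 4). The 2 types did not overlap, the former being higher in each of the 4 libraries, and the genotypes overlapped in the hypertrophic chondrocyte/osteoblast type. In CP1 and CP2 both Tbx1+/- libraries were below both WT libraries, and in CT1 and CT3 both were above them. The CT3 means were 12.8 CPM in WT and 22.3 CPM in Tbx1+/-. None of these types was tested alone. A full separation of 2 against 2 libraries gives an exact two-sided permutation p of 0.33, the smallest possible. Such a test therefore cannot tell these separations from the spread between libraries. In CT1 the Tbx1+/- libraries were at 7.43 CPM and, from 12 UMIs, at 25.5 CPM, against 7.06 and 5.73 CPM in WT. The log2 change of Tnfsf11 was -0.25 (95% interval -0.67 to 0.17) in the joined CP class. It was 0.26 (95% interval -0.62 to 1.14) in the joined CT class.

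CT4 at 23.7 ± 9.43 CPM and CT3 at 17.6 ± 5.79 CPM (SD, n = 4) followed, with ranges that overlapped each other and lay below that of CP1. Osteoblasts were at 8.01 ± 1.09 CPM (SD, n = 4), and the lowest type was CP3 with 3.81 ± 1.19 CPM. From CT3 down to CP3, each type overlapped the next in the order. Matured osteoblasts/osteocytes, the class that holds the cells known as a main RANKL source in adult bone, had at most 7.46 CPM in any library. In matured chondrocytes of Tbx1+/- replicate 1, 0 of 166846 UMIs were Tnfsf11, which allows a level of up to 18.0 CPM.

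Osteoclasts, the receptor cells, were at 7.03 ± 2.11 CPM and served as the reference for shares of nuclei. They are not the floor, since 6 types had a lower mean, and osteoblasts were above CP3 in each of the 4 libraries. When every nucleus was thinned to 2000 UMIs, leaving out 1017 of 29517 nuclei outside the osteoclasts and 37 of 1559 osteoclasts, 0.634% to 1.20% of osteoclasts per library had a Tnfsf11 UMI. In 4 of the other 14 types every library lay above that range: hypertrophic chondrocyte/osteoblasts with 9.52% (18.2% before thinning), CP1 with 7.40% (13.6%), CT4 with 3.90% (8.35%) and CT3 with 3.30% (7.25%). Osteoblasts, with 1.34% after thinning and 1.10% to 1.66% per library, overlapped the osteoclasts. These median depths were 4211 UMIs outside the osteoclasts and 5788 UMIs in osteoclasts.

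**Figure D1:**
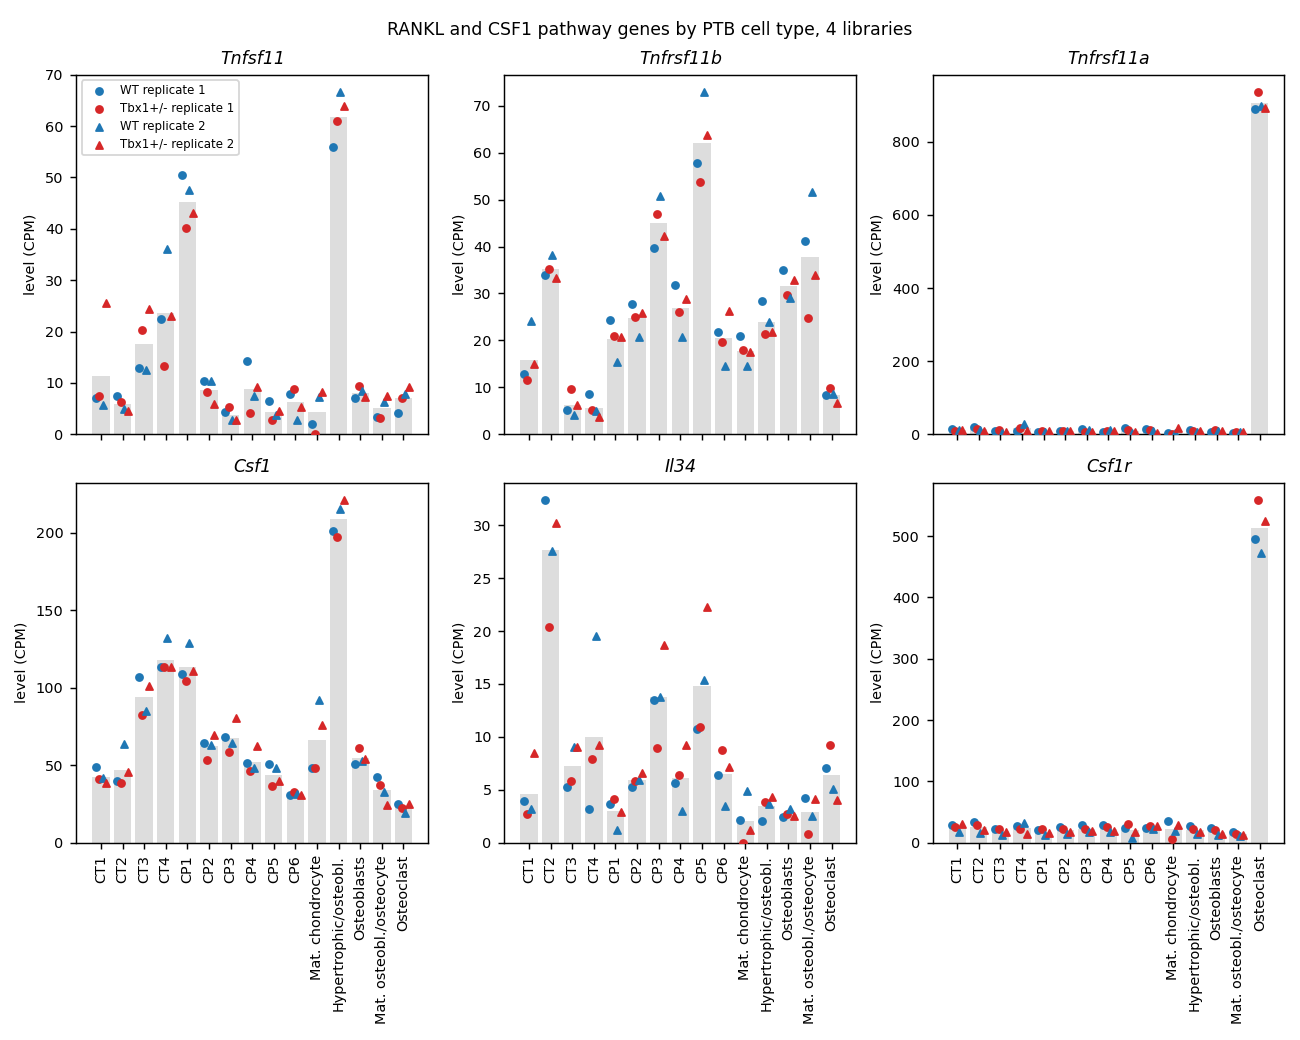
Level of the 6 genes in CPM (vertical axes, linear, a scale of its own per gene) in the 15 PTB cell types (horizontal axis), with a point for each of the 4 libraries and a grey bar for their mean. Tnfsf11 peaks in hypertrophic chondrocyte/osteoblasts (61.8 CPM) and CP1 (45.3 CPM), Tnfrsf11b in CP5 (62.1 CPM), and both receptors in osteoclasts (905 and 513 CPM).

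Csf1, the main growth factor of the macrophage lineage, had its highest level in the same type. In hypertrophic chondrocyte/osteoblasts it was at 201 and 215 CPM in the WT libraries and at 197 and 221 CPM in the Tbx1+/- libraries, a mean of 208 ± 11.4 CPM (SD, n = 4), and the genotypes overlapped. CT4 at 118 ± 9.27 CPM, CP1 at 113 ± 11.0 CPM and CT3 at 93.9 ± 12.1 CPM (SD, n = 4) followed, in this order in each of the 4 libraries although the ranges of neighbours overlapped. Per gene length, Csf1 stood at 10.7 CPM per kb and Tnfsf11 at 2.02 CPM per kb in the hypertrophic chondrocyte/osteoblast type.

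Unlike Tnfsf11, Csf1 was present well beyond these 4 types. Its level was 54.5 ± 4.36 CPM in osteoblasts and lowest in osteoclasts, at 22.8 ± 2.78 CPM (SD, n = 4). After thinning, 28.9% of hypertrophic chondrocyte/osteoblast nuclei and 17.6% of CT4 nuclei had a Csf1 UMI (47.6% and 31.5% before it), against 3.60% of osteoclasts (10.1%). Every library of 13 of the other 14 types lay above the osteoclast range of 3.12% to 4.11%, the exception being matured osteoblasts/osteocytes with 3.99% to 7.22%. Across the 15 types, the log2 levels of Csf1 and Tnfsf11 had a Pearson r of 0.78, as a description over types that come from the same libraries.

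Il34, which encodes the other CSF1R ligand, was the least abundant member and had another distribution. CT2 was its highest type, with 32.4 and 27.6 CPM in the WT libraries and 20.4 and 30.2 CPM in the Tbx1+/- libraries, a mean of 27.6 ± 5.19 CPM (SD, n = 4). CT2 was above the next type, CP5, in each of the 4 libraries, but the ranges overlapped, since CP5 reached 22.3 CPM in Tbx1+/- replicate 2. CP5 at 14.8 ± 5.46 CPM and CP3 at 13.8 ± 3.98 CPM (SD, n = 4) overlapped too. These were the 3 types in which every library lay above the highest osteoclast library after thinning (osteoclast mean 1.18%), and CT2 nuclei reached 3.95% (7.88% before thinning). The hypertrophic chondrocyte/osteoblast type, which led for Tnfsf11 and Csf1, had 3.46 ± 1.00 CPM of Il34.

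The osteoprotegerin gene Tnfrsf11b was highest in progenitor types that had little Tnfsf11. CP5 stood at 57.7 and 73.0 CPM in WT and at 53.7 and 63.8 CPM in Tbx1+/-, a mean of 62.1 ± 8.40 CPM (SD, n = 4), above the range of CP3 at 44.9 ± 4.89 CPM. Of 7 chondrocyte markers in CP5, the collagen gene Col9a1 was at 1829 CPM, the highest of the 15 types, and Sox9, Col2a1 and Matn1 ranked 2, while Acan ranked 10, Col10a1 13 and Comp 14. Matured osteoblasts/osteocytes at 37.8 ± 11.4 CPM, CT2 at 35.1 ± 2.19 CPM and osteoblasts at 31.6 ± 2.80 CPM (SD, n = 4) came next and overlapped each other. CT3 and CT4, which ranked 4 and 3 among the Tnfsf11 sources, were the lowest, CT4 with 5.60 ± 2.09 CPM against 8.36 ± 1.35 CPM in osteoclasts. Thinned to equal depth, 10.6% of CP5 nuclei and 5.33% of osteoblast nuclei had a Tnfrsf11b UMI (23.4% and 11.2% before it), against 1.38% of osteoclasts (4.64%).

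**Figure D2:**
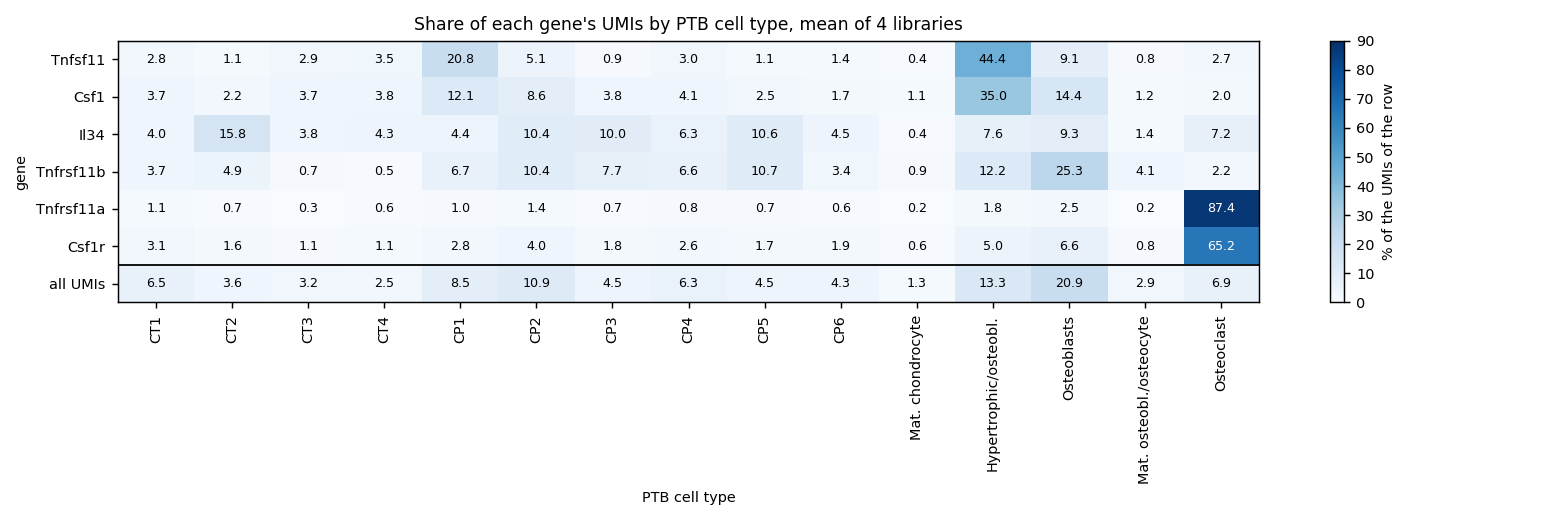
Share (colour and printed percent, mean of the 4 libraries) of each gene's UMIs in annotated nuclei that fell in each of the 15 PTB cell types, with the share of all UMIs in the bottom row. Of the Tnfsf11 UMIs 44.4% fell in hypertrophic chondrocyte/osteoblasts, which held 13.3% of all UMIs, and 87.4% of the Tnfrsf11a UMIs fell in osteoclasts, which held 6.91%.

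The next shares are of the transcripts captured in annotated nuclei. Hypertrophic chondrocyte/osteoblasts held 44.4% of the Tnfsf11 UMIs (38.5% to 48.8% per library) and 35.0% of Csf1 UMIs (31.0% to 38.2%), with 13.3% of all UMIs. CP1 held 20.8% of the Tnfsf11 UMIs with 8.48% of all UMIs. Tnfrsf11b was spread more evenly, with 25.3% in osteoblasts, which held 20.9% of all UMIs, and 10.7% in CP5, which held 4.50%. A share of this kind joins the number of nuclei of a type and the RNA per nucleus, which cannot be told apart in it.

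The ratio of Tnfsf11 to Tnfrsf11b UMIs differed widely between the types. It was above 1 in each of the 4 libraries in 4 types, CT3, CT4, CP1 and hypertrophic chondrocyte/osteoblasts, and below 1 in each of the 4 in 9 types. In hypertrophic chondrocyte/osteoblasts it was 1.97 and 2.78 in WT and 2.84 and 2.91 in Tbx1+/-, from 91 to 155 Tnfrsf11b UMIs per library. In osteoblasts it was 0.202 and 0.293 in WT and 0.315 and 0.218 in Tbx1+/-, so the genotypes overlapped. Over the 15 types the genotypes separated in either direction. Both Tbx1+/- libraries were above both WT libraries in 3 types, hypertrophic chondrocyte/osteoblasts, matured osteoblasts/osteocytes and CT1, and below both in 2 types, CP2 (0.327 and 0.225 against 0.370 and 0.494) and CP4 (0.159 and 0.322 against 0.448 and 0.357). A separation of 2 against 2 libraries gives an exact two-sided permutation p of 0.33, the smallest possible with so few libraries. The test therefore cannot tell whether any of these differs beyond the spread between libraries. CP5 had the lowest mean ratio, 0.0717 ± 0.0274 (SD, n = 4), and CT4 the highest, 4.69 ± 2.51 (SD, n = 4), the latter from 4 to 8 Tnfrsf11b UMIs per library. The 4 types with a ratio above 1 held 69.1% to 73.8% of the Tnfsf11 UMIs and 16.7% to 22.3% of the Tnfrsf11b UMIs per library, with 26.5% to 28.7% of all UMIs. These types were picked by the ratio of the same UMIs. That their Tnfsf11 share exceeded their Tnfrsf11b share therefore follows from the choice and is no further result. Both genes were rarely captured in the same nucleus: of 4311 hypertrophic chondrocyte/osteoblast nuclei, 55 had both, and 7.12% of nuclei with a Tnfsf11 UMI also had a Tnfrsf11b UMI, against 8.05% of those without.

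**Figure D3:**
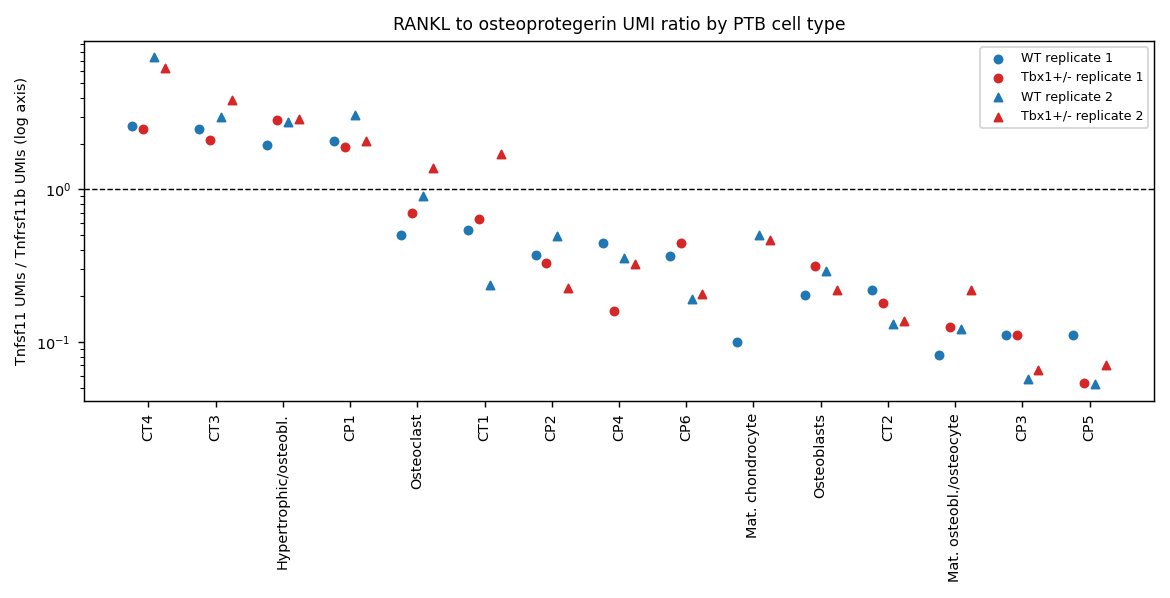
Ratio of Tnfsf11 to Tnfrsf11b UMIs (vertical axis, log scale, dashed line at 1) in the 15 PTB cell types, ordered by the mean ratio, with a point for each library. CT4, CT3, hypertrophic chondrocyte/osteoblasts and CP1 lie above 1 in all 4 libraries, and matured chondrocytes of Tbx1+/- replicate 1, with 0 Tnfsf11 UMIs, are not drawn.

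Among the annotated types, both receptors were highest in the osteoclasts. Tnfrsf11a, which encodes RANK, was at 889.7 and 899 CPM in WT osteoclasts and at 937 and 893 CPM in Tbx1+/- osteoclasts, a mean of 905 ± 21.8 CPM (SD, n = 4). The next type, CT4, had 16.6 ± 9.51 CPM, and osteoclasts exceeded the highest other type of their library by 30.7 to 51.0 times. Of all Tnfrsf11a UMIs in annotated nuclei, 87.4% (83.2% to 90.1%) came from osteoclasts.

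Csf1r (ENSMUSG00000024621, chr18:61100598-61132149 on the plus strand) was at 496 and 473 CPM in WT osteoclasts and at 559 and 525 CPM in Tbx1+/- osteoclasts, a mean of 513 ± 37.3 CPM (SD, n = 4). Both Tbx1+/- libraries were above both WT libraries, by a margin that the genotype test below did not call. Among the other 14 types, Csf1r ran from 14.0 ± 2.79 CPM in matured osteoblasts/osteocytes to 25.6 ± 5.43 CPM in CT1 (SD, n = 4). Osteoclasts held 65.2% (52.8% to 72.7%) of its UMIs in annotated nuclei. Per gene length, osteoclasts had 16.3 CPM per kb of Csf1r and 13.4 CPM per kb of Tnfrsf11a, the reverse of their order in CPM.

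Outside osteoclasts, the 2 receptors did not keep the ratio to Ctsk that they had within them. The level in the pooled other classes, as a percent of the osteoclast level, was 0.919% to 1.17% for Tnfrsf11a, 3.13% to 5.18% for Csf1r, 5.59% to 10.8% for Ctsk and 11.4% to 16.2% for Acp5. Csf1r was 9.17% to 15.2% of the Ctsk level in osteoclasts and 4.86% to 5.98% outside them. Between libraries, Csf1r outside osteoclasts was highest in WT replicate 1 (25.7 CPM) and lowest in WT replicate 2 (14.8 CPM), as was Ctsk (460.4 and 248 CPM). At 2000 UMIs per nucleus the shares of nuclei with a UMI outside osteoclasts were 1.73% for Tnfrsf11a (3.71% before thinning) and 4.11% for Csf1r (8.62%), and within types they ran from 0.931% to 2.71% and from 2.89% to 5.01%. The part of free osteoclast RNA in these low levels was not tested.

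Within osteoclasts most nuclei carried both receptors. A Tnfrsf11a UMI was found in 94.9% ± 1.10 and a Csf1r UMI in 87.2% ± 2.77 of the nuclei (SD, n = 4), or 79.0% and 60.3% at 2000 UMIs per nucleus. Both were found in 1306 of 1559 nuclei, 171 had Tnfrsf11a alone, 49 had Csf1r alone and 33 had neither. Nuclei with a Tnfrsf11a UMI had a median of 5968 UMIs and those without 3038 UMIs. Among the 779 nuclei between 4009 and 8354 UMIs, 92.8% of those with Tnfrsf11a and 70.8% of those without had a Csf1r UMI. On the ligand side, 472 of 4311 hypertrophic chondrocyte/osteoblast nuclei had both Tnfsf11 and Csf1, and among the 2156 of them between 3245 and 5639 UMIs, 58.4% of those with Tnfsf11 and 43.5% of those without had a Csf1 UMI. Depth still differed within these bands, with medians of 5818 and 5059 UMIs in osteoclasts and of 4435 and 4216 UMIs in the other type.

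**Figure D4:**
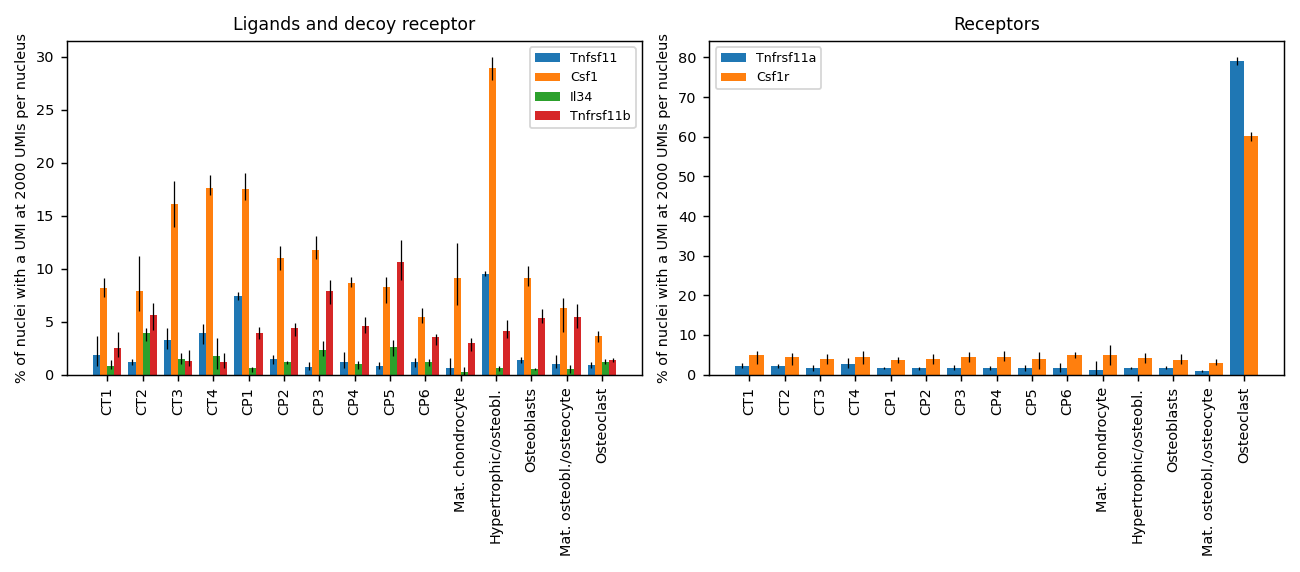
Share of nuclei with at least 1 UMI of each gene when every nucleus is thinned to 2000 UMIs (vertical axes, percent, linear from 0), by PTB cell type, with bars for the mean of 4 libraries and whiskers from the lowest to the highest library. Ligands and the decoy are on the left, where Csf1 reaches 28.9% of hypertrophic chondrocyte/osteoblasts, and receptors on the right, where Tnfrsf11a reaches 79.0% of osteoclasts.

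The genes whose pattern over the 15 types was most like each member were ranked among 13110 genes by Pearson r of log2 levels. For Tnfsf11 they were Wdr72 (r = 0.898), Rhot1 (0.882) and Sptlc1 (0.859), and for Csf1 they were Fads3 (0.898), Amotl1 (0.882) and Qsox1 (0.882). For Il34 they were Rchy1 (0.922), Gclc (0.906) and Rab11a (0.899), and for Tnfrsf11b Hspa13 (0.881), 4930517O19Rik (0.851) and Glcci1 (0.850). Both receptors followed osteoclast genes more closely. Slc37a2 (0.988), Ptprc, the pan-leukocyte marker CD45 (0.987), and Aagab (0.985) were nearest to Tnfrsf11a. Slc37a2 (0.992) and the proton pump genes Atp6v1a (0.992) and Atp6ap2 (0.991) were nearest to Csf1r, and the r between the receptors was 0.98. A gene seen in 1 type alone gives a high r over these types by that type.

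The genes of the signalling chains behind the receptors were read by the class of their highest level, as counts without a test. Of all 12395 genes with at least 10 CPM in a class, 23.6% had their highest level in osteoclasts and 6.20% in osteoblasts. Nfatc1, Src, Mitf, Tfec and Spi1 stand in 2 of the lists, and some genes were nearly level between classes, such as Trem2 with 4.16 ± 1.54 CPM (SD, n = 4) in osteoclasts and 3.86 CPM in the next class. Of 23 genes of the RANK signal chain, 15 had their highest class level in osteoclasts, among them Nfatc1, the master factor of osteoclast differentiation, at 1042 ± 108 CPM against at most 116 CPM in other classes. Fosl2, an AP-1 factor, was at 268 ± 19.0 CPM in osteoclasts, and Gab2, an adaptor bound by RANK, was at 975 ± 91.6 CPM there but at 1059.6 CPM in matured osteoblasts. The other 8 genes of this chain were highest elsewhere. Of 11 genes of the ITAM co-stimulation of RANK, 10 were highest in osteoclasts, led by Oscar at 552 ± 102 CPM, Syk at 346 ± 16.6 CPM and Tec at 285 ± 16.1 CPM (SD, n = 4 for all). Of 17 genes of the CSF1R chain, 12 were highest there and 5 elsewhere, with Cblb, a ubiquitin ligase, at 1239 ± 83.7 CPM, the factor Mitf at 603 ± 29.7 CPM and the phosphatase gene Inpp5d at 379 ± 17.7 CPM. Of 21 osteoclast factors and fusion genes, 19 were highest there, with Ctsk at 4606 ± 734 CPM, the proton pump gene Atp6v0d2 at 2500.4 ± 208 CPM and Acp5 at 1356 ± 312 CPM. All 8 osteoclast markers used to check the label stand in this list, so its count repeats that check in part.

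On the stromal side, 20 genes known to regulate RANKL were read in osteoblasts. None had its highest class level there, against 6.20% of all genes, so this count does not set the list apart. Runx2 was at 4631 ± 126 CPM, Lifr, a receptor subunit for cytokines of the IL-6 family, at 1512 ± 178 CPM and Pth1r, the parathyroid hormone receptor, at 618 ± 29.6 CPM in osteoblasts (SD, n = 4). By class, Runx2 (6974 CPM) and Lifr (1666 CPM) were highest in hypertrophic chondrocyte/osteoblasts and Pth1r (1387 CPM) in matured chondrocytes. Over the 15 types, the r of these 20 genes with Tnfsf11 ran from -0.41 for Efnb2 to 0.69 for Osmr, the oncostatin M receptor, with Runx2 at 0.66. Osmr, at 85.1 CPM, was highest in hypertrophic chondrocyte/osteoblasts, the leading Tnfsf11 type, while Runx2 was highest in CP1, at 8806 CPM, the next Tnfsf11 type.

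Whether Tbx1 haploinsufficiency changed any of these genes was tested in 7 classes, the CT and CP types being joined, with edgeR's quasi-likelihood test on the summed UMIs of 2 WT and 2 Tbx1+/- libraries. No member was called in any class at an adjusted p under 0.05 and a change above 1.5-fold. Of 42 pairs of member and class 35 passed the filter on low counts, 2 in matured chondrocytes, 3 in matured osteoblasts and 6 in each other class. All genes together gave no call either in this fit (0% in each of the 7 classes). With the replicate block, which pairs the libraries of a batch, 24 genes were called in CT, 18 in matured chondrocytes, 4 in matured osteoblasts, 3 in osteoclasts and 0 in the other classes, none of them a member. In the fit without the block 1 of the 35 pairs had an unadjusted p under 0.05, against 1.54% of all genes over the 7 classes. DESeq2 called 0 of 42 pairs, and in 0 of them its unadjusted p was under 0.05. Over all genes 23 to 69 per class had such a p in DESeq2, of 19006 to 26300 tested. The estimates were higher in Tbx1+/- for 16 pairs and lower for 19.

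The pair with the small p was Tnfrsf11b in matured osteoblasts, where 2.27% of all genes had an unadjusted p under 0.05. It was at 41.2 and 51.6 CPM in WT and at 24.7 and 34.0 CPM in Tbx1+/-, from 163 UMIs in all, so both Tbx1+/- libraries were below both WT libraries and the value was lower in either batch. The log2 change was -0.68 (SE 0.29, 95% interval -1.33 to -0.03, edgeR unadjusted p = 0.041, adjusted p = 0.9992). In osteoblasts, with 992 UMIs, the same gene had a log2 change of -0.05 (95% interval -0.44 to 0.35), with 34.9 and 29.0 CPM in WT and 29.6 and 32.9 CPM in Tbx1+/-. In hypertrophic chondrocyte/osteoblasts it was -0.29 (95% interval -0.71 to 0.12), with 28.3 and 24.0 CPM in WT and 21.4 and 21.9 CPM in Tbx1+/-, which did not overlap. The genotypes overlapped in the joined CP class, with a change of 0.0046 (95% interval -0.34 to 0.35). They also overlapped in the joined CT class, with -0.085 (95% interval -0.63 to 0.46). A separation of 2 against 2 libraries has an exact two-sided permutation p of 0.33 at best.

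In hypertrophic chondrocyte/osteoblasts the log2 change of Tnfsf11 was 0.01 (SE 0.14, 95% interval -0.32 to 0.35) and that of Csf1 -0.01 (SE 0.12, 95% interval -0.29 to 0.27), so changes beyond 1.27-fold and 1.21-fold upward lay outside them. In osteoclasts Tnfrsf11a had a log2 change of 0.03 (SE 0.10, 95% interval -0.21 to 0.27) and Csf1r of 0.16 (SE 0.11, 95% interval -0.11 to 0.42, edgeR adjusted p = 0.9997). In the joined CT class Il34, with 259 UMIs, had a log2 change of 0.08 with a 95% interval of -1.07 to 1.23, too wide to tell a rise from a fall. A p above the threshold does not show that the genotypes were alike.

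**Figure D5:**
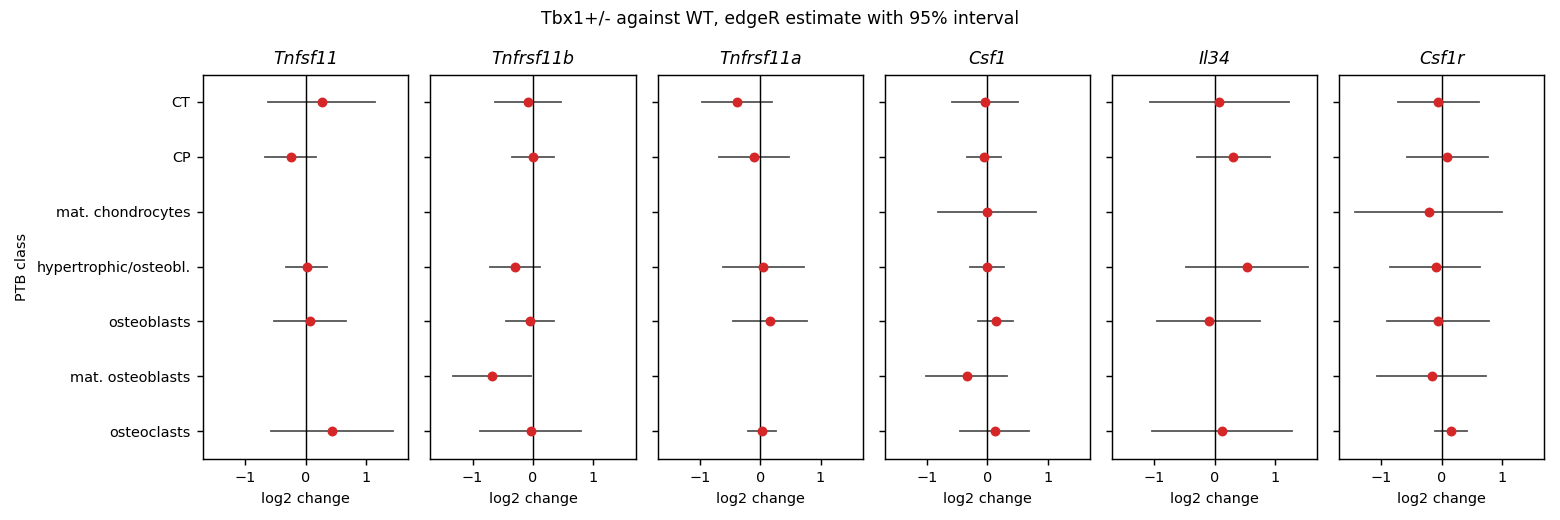
Log2 change of the 6 genes in Tbx1+/- against WT (horizontal axes, 0 marked) in the 7 PTB classes (vertical axis), as the edgeR estimate (point) with its 95% interval (line), for the 35 pairs that passed the filter on low counts. All intervals include 0 but that of Tnfrsf11b in matured osteoblasts, -1.33 to -0.03.

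The change in osteoclasts was also compared with that in osteoblasts, with the library as a block. No member was called as different (0 of 6, edgeR adjusted p of at least 0.9995), and 0 of 15705 genes were (0%). An unadjusted p under 0.05 was found for 687 genes, none of them a member. The SE of the members ran from 0.20 to 0.57 on the log2 scale, so the lack of a call does not show equal changes. The count over all genes depended on single libraries, with 35 genes called without WT replicate 1, 6 without Tbx1+/- replicate 1, 6 without WT replicate 2 and 57 without Tbx1+/- replicate 2, none of them a member. The difference was 0.19 (SE 0.22) for Csf1r and -0.13 (SE 0.20) for Tnfrsf11a on the log2 scale.

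The Tnfsf11 to Tnfrsf11b ratio over the 3 osteoblast classes together was 0.796 and 0.912 in WT and 1.06 and 0.963 in Tbx1+/-. Both Tbx1+/- libraries were above both WT libraries, by 0.24 on the log2 scale as the difference of means, 0.41 in batch 1 and 0.08 in batch 2. Over all annotated nuclei the difference was 0.11, and without the hypertrophic chondrocyte/osteoblast class it was 0.21 with overlapping genotypes. In the joined CP class the ratio was lower in both Tbx1+/- libraries (0.496 and 0.426) than in both WT libraries (0.566 and 0.526). With 2 against 2 libraries the smallest p of an exact two-sided permutation test is 0.33, so no such test could call a difference in this ratio. The 3 classes differ widely in this ratio, and their shares of nuclei enter the joined value.

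No gene of the 5 pathway lists was called between genotypes in osteoclasts or osteoblasts by the edgeR fit without the replicate block. In osteoclasts, 0 of 23 tested genes of the RANK chain, 0 of 10 of ITAM co-stimulation, 2 of 17 of the CSF1R chain, 1 of 20 of the osteoclast factors and 2 of 20 stromal regulators had an unadjusted p under 0.05, against 2.18% of all genes. In osteoblasts 1 gene of the 5 lists did, a stromal regulator, against 1.23% of all genes. The 2 genes of the CSF1R chain in osteoclasts were Ptprz1 and Fyn, both higher in another class. Ptprz1 was at 80.4 CPM in osteoclasts and 3510.2 CPM in matured osteoblasts, and Fyn at 124 CPM against 570.0 CPM in osteoblasts. The median log2 change in osteoclasts was 0.07 for the RANK chain, -0.07 for ITAM co-stimulation, 0.09 for the CSF1R chain and -0.01 for the osteoclast factors, and it was 0.19 for the stromal regulators, against 0.01 over all genes. In osteoblasts the medians were 0.08, -0.02, 0.06 and 0.23 for the RANK chain, ITAM co-stimulation, the CSF1R chain and the osteoclast factors, and -0.01 for the stromal regulators, against 0.01 over all genes.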

How the data were processed

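Nuclei of 4 PTB and 4 PF/F libraries, each a pool of 5 mice, were sequenced from 3′ ends in droplets. The authors made the deposited counts, raw UMIs per gene and barcode, with Cell Ranger 7.0.0 on mm10 with introns included, and deposited Cell Ranger's filtered barcodes, without their later limits on nuclei and without their correction for free RNA. Cell types are those of the deposited annotation. No doublet removal is described in the sources used here, and no caller was run; leaving out the 8% of nuclei with most UMIs per library was tried instead.

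Groups came from the labels. UMIs were summed per library over the nuclei of a type or class (Python 3.11.15, numpy 2.4.6, scipy 1.17.1, pandas 2.3.3), and CPM are per 1000000 UMIs. The genotype test on these sums used edgeR 4.0.16 in R 4.3.3 (filterByExpr, TMM, quasi-likelihood test, Benjamini-Hochberg adjustment over all genes of a class), at an adjusted p under 0.05 and over 1.5-fold. Each SE is the size of the log2 change over the root of its F statistic. DESeq2 1.42.0 was an alternative. The edgeR steps were tested on simulated counts that were drawn without a batch effect. Ratios were compared by exact permutation. Shares of nuclei were thinned to 2000 UMIs as the expected share, leaving out shallower nuclei. Limits at 0 counts (3 counts) cover counting error only. The intervals of the log2 changes rest on the SE from the quasi-likelihood test, which includes the spread between pools. Likeness between genes used log2(CPM + 1) over 15 type means, for genes of at least 10 CPM in a type.

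Named genes were the members, the 3 genes most like each, the 3 most abundant genes of each pathway list in osteoclasts (stromal regulators in osteoblasts), any called gene of a list, and markers. Osmr, Efnb2, Ptprz1 and Fyn were named after their values were seen. The members, lists and markers were chosen with earlier results of these data known. Coordinates are from GENCODE vM21, in which 32158 of 32285 features were found by identifier, and promoters from RefSeq, where 3 members matched. Libraries of a replicate number share a batch, as the paper describes, and deviations of the paired libraries from their genotype mean had a correlation of 0.478 over 20250 genes, which are not independent replicates.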

Additional observations from a re-analysis of the deposited data

Results flagged for a closer look

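Of 90 sets of 4 libraries (6 genes in 15 types), 2 held a library far from the other 3 in Dixon's test, where chance alone flags about 1 set in 20. Tnfsf11 in CT1 was at 25.5 CPM in Tbx1+/- replicate 2, from 12 UMIs, and at 5.73 to 7.43 CPM in the other libraries. Csf1 in CT4 was at 132 CPM in WT replicate 2, from 135 UMIs, and at 113 CPM in each of the others.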

How the results depend on the processing

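No member was called between genotypes under DESeq2, RLE factors, the replicate block, a table with no low-count filter, nuclei with at least 2000 genes, the most UMI-rich nuclei left out, or any library left out (0 calls in each). Without the low-count filter 1 gene was called in CT, 10 in matured chondrocytes, 17 in hypertrophic chondrocyte/osteoblasts and 9 in matured osteoblasts, against 0 with it. The replicate block, which pairs the libraries of a batch, left 0 members called and changed no call of a member. With it 1 of the 35 pairs of member and class had an unadjusted p under 0.05. Over all genes 414 to 954 had one per class, of 7719 to 17894 tested. The block called 24 genes in CT, 18 in matured chondrocytes, 4 in matured osteoblasts and 3 in osteoclasts, against 0 without it. The comparison of osteoclasts with osteoblasts gave 0 members but 6 to 57 genes in the fits without 1 library, an alternative added after seeing the data. The Tnfrsf11a level in osteoclasts moved from 905 CPM to 957 CPM without the most UMI-rich nuclei, to 935 CPM as the mean of each nucleus and to 967 CPM with TMM scaling. Some small log2 changes turned sign: Csf1 in hypertrophic chondrocyte/osteoblasts to 0.011 without the filter and to 0.00045 with DESeq2, and between -0.082 and 0.09 as libraries were left out. Leaving out a library gave -0.10 to 0.14 for Tnfsf11 in the same class, -0.0046 to 0.038 for Tnfrsf11a in osteoclasts and -0.54 to 0.56 for Il34 in CT. The causes were not tested. Whole-class call counts moved with single libraries, in osteoclasts from 0 to 206 genes without WT replicate 1 and to 43 without WT replicate 2. Tnfrsf11b in matured osteoblasts stayed lower, at -0.94 to -0.45 as libraries were left out. With at least 50 CPM, 15 of the 18 most-like genes stayed among the 3. The ratio difference over the osteoblast classes (0.24) was 0.15 without WT replicate 1 and 0.34 without WT replicate 2, the ends of its range as libraries were left out, and 0.11 over all annotated nuclei. Depth limits Il34 and Tnfsf11 most, with 929 and 2826 UMIs.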

Other observations

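The PF/F libraries, which entered no comparison above, gave the same genes in brain tissue. Of 48237 PF/F nuclei, 385 (0.798%) were annotated as immune, and these held 59.4% of the Csf1r UMIs, at 658 and 507 CPM in WT and at 538 and 611 CPM in Tbx1+/-. Tnfrsf11a was at 205 ± 35.0 CPM and Csf1 at 218 ± 99.6 CPM in them (SD, n = 4), but they held only 20.2% of the Tnfrsf11a UMIs and 18.9% of the Csf1 UMIs of the PF/F. Il34 was at 124 ± 10.0 CPM in the 706 meningeal nuclei, which held 54.5% of its UMIs, and at 146 ± 70.1 CPM in 74 pericytes, from 35 UMIs. Tnfsf11 had 11 UMIs in all PF/F nuclei together, a level of 0.0631 CPM.

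Of the PTB barcodes without a deposited cell type, 19670 lay within limits set here after those the paper describes. The limits were at least 1000 genes, and at most 3 median absolute deviations for UMIs, genes and mitochondrial share. The authors' own filter kept fewer PTB nuclei in all, so not all of these barcodes passed it. The barcodes were grouped by the marker lists with a rule chosen after seeing the data. All 19670 barcodes together held 3147 Tnfrsf11a and 5336 Csf1r UMIs, against 9422 and 5353 in annotated osteoclasts. The shares of receptor UMIs given above leave these barcodes out. In the 1696 barcodes with macrophage or monocyte markers, Csf1r was at 352 ± 48.1 CPM and Tnfrsf11a at 174 ± 33.6 CPM (SD, n = 4). In the 6138 barcodes with osteoclast markers, of which 986 had just the 3 marker UMIs required, Tnfrsf11a was at 35.9 ± 7.14 CPM and Csf1r at 43.8 ± 13.4 CPM, well under the annotated osteoclasts. The same marker list summed to class means of 830.0 to 1224 CPM in annotated nuclei other than osteoclasts, so 3 marker UMIs do not show a barcode to be an osteoclast. The 2652 barcodes with endothelial markers had Csf1 at 50.9 ± 3.23 CPM and Il34 at 13.4 ± 2.47 CPM. Il34 was higher, at 31.3 ± 9.36 CPM, in 1043 barcodes with epithelial markers and at 26.6 ± 6.24 CPM in 2785 with glial markers, levels near that of CT2 among the annotated types. In 18 barcodes with T lineage markers Tnfsf11 had 6 UMIs, with 0 to 188 CPM per library.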
